A study of Mus musculus with 3 samples.

Results

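The 38 genes described here encode the glycolytic enzymes and their isozymes, the enzymes and the transporter at the lactate and pyruvate branch, and the hypoxia-inducible factor (HIF) system with its classical targets. They were taken by symbol from the 33696 genes of the deposited gene table and compared across rods, bipolar cells, amacrine cells, Müller glia, astrocytes, microglia and endothelial cells (ECs) of the mouse retina at postnatal day 6. All 38 symbols were found. Aldoa stands on a pair of rows, of which the row with nearly all counts was used.

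Glycolysis splits glucose into pyruvate. Hexokinase traps glucose as its phosphate, phosphofructokinase commits it to the pathway, and the enzymes after the aldolase step yield ATP, NADH and pyruvate. Lactate dehydrogenase then turns pyruvate into lactate, or pyruvate enters the mitochondria through pyruvate dehydrogenase, which the pyruvate dehydrogenase kinases switch off. Photoreceptors are known for running this pathway to lactate in the presence of oxygen. In low oxygen the prolyl hydroxylases of the Egln family stop marking HIF-1α and HIF-2α (the products of Hif1a and Epas1) for removal by the Vhl protein, and the HIF proteins, paired with Arnt, raise the transcription of glycolytic enzymes and of genes such as Bnip3, Ndrg1, Ankrd37 and Ddit4. HIF proteins are regulated mainly by their stability, so the mRNA of Hif1a or Epas1 is not a measure of HIF activity. The retina at this age is still growing its vessels.

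Single-cell RNA sequencing (10x Genomics 3′ chemistry) was performed on retinal cells enriched with beads for vascular cells and microglia, in 1 library each of wild-type mice (WT), Tspan12 KO mice, which lack the co-receptor of the Norrin receptor complex in every cell, and Ctnnb1 cKO mice, which lose β-catenin after tamoxifen in cells with Pdgfb-iCreER, an EC driver. The strain background was C57BL/6 throughout, retinas of several pups of a litter were pooled for a library, and WT pups came from other litters than the knockouts. Whether WT mice carried the Cre driver or received tamoxifen was not given in the sources used here. With 1 library per genotype there is no replicate check. Values are therefore compared between libraries without any test, and intervals cover counting error of the unique molecular identifiers (UMIs) only. Genotype, litter, library and sequencing depth cannot be told apart. The targeted genes, counted from transcript ends, did not serve as a check of the labels, because the deleted exons were not given in the sources used here: in ECs the libraries WT, Tspan12 KO and Ctnnb1 cKO had Tspan12 at 95.1, 84.8 and 40.6 CPM (counts in 1000000 UMIs of the class) and Ctnnb1 at 523, 603 and 441 CPM. The counts therefore did not show the loss of either gene, and the genotypes are as labelled.

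The libraries WT, Tspan12 KO and Ctnnb1 cKO held 9951, 14426 and 9151 barcodes, with a median of 4974, 3166 and 2790 UMIs. At most 37 barcodes were shared between libraries. Cells were clustered without the 38 genes and named from fixed markers, so that a class name stands for cells like that class, and 37.2%, 44.9% and 7.74% of the cells stayed unnamed. In rods, bipolar cells, microglia and ECs most Ctnnb1 cKO cells lay in clusters of their own (cluster 6 for rods, 30 for bipolar cells, 5 and 26 for microglia, 3 and 14 for ECs). Amacrine cells shared clusters between libraries. The named Müller glia shared cluster 4, but most Ctnnb1 cKO cells that best matched Müller glia lay in cluster 19. It held 0 WT, 1 Tspan12 KO and 456 Ctnnb1 cKO cells and stayed unnamed. Rods numbered 1710, 2314 and 1867 in WT, Tspan12 KO and Ctnnb1 cKO, amacrine cells 841, 1037 and 244, bipolar cells 507, 831 and 132, and Müller glia 1017, 855 and 40. Microglia numbered 297, 401 and 2156, ECs 546, 280 and 2722, and astrocytes 21, 53 and 7. The 7 astrocytes held 9090 UMIs in all, and the Ctnnb1 cKO comparison was left out for them. Median UMIs per cell were 3797 in WT and 1699 in Ctnnb1 cKO for rods, and 9587 and 3048.5 for microglia. For amacrine cells they were 5638 and 2084, and for Müller glia 5751 and 3831.5. The median mitochondrial share was 2.23% and 0.366% for rods, 3.80% and 0.381% for microglia and 2.99% and 0.291% for amacrine cells. Summed rod markers were 13732, 14221 and 8211 CPM in the rods, and only 3 of 12 rod markers were past 2-fold in cluster 6. Markers of microglia and of ECs were higher in Ctnnb1 cKO rods. Summed microglial markers in rods were 133, 103 and 792 CPM, and summed EC markers in rods 189, 98.1 and 541 CPM.

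The first question was in which cell class each gene is used. Levels are CPM from transcript ends, so they are compared between classes for a gene and never between genes. Of the 38 genes, 20 had their highest class in common in all 3 libraries. Without Car9, which had too few UMIs, these were 19 of 37 genes over the 7 classes (40.3% of 16259 genes) and 24 of 37 when the few astrocytes were set aside (49.6%). For a stricter rule, each class was set against the median of the other 5 classes (astrocytes aside), and 37 genes with an average of at least 50 UMIs per class were counted when they were at least 2-fold apart the same way in all 3 libraries, on CPM plus 5. ECs had 1 gene higher and 9 lower, against 10.1% and 11.3% of 13735 genes. Microglia had 5 higher and 5 lower, against 10.4% and 13.9%. Rods had 2 higher and 0 lower (4.46% and 1.57% of all genes), bipolar cells 1 and 0 (4.47% and 1.19%), Müller glia 1 and 0 (5.29% and 1.18%) and amacrine cells 0 and 0 (7.27% and 0.328%). The 9 of 37 lower in ECs thus stood above the background share, while the counts in rods, bipolar cells and Müller glia were near it. The rods of WT and Tspan12 KO lay in 2 clusters, 8 and 2, and 0 of the genes were at least 2-fold higher or lower in cluster 8 in both libraries (0.176% and 0.0383% of all genes).

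The mRNA of the hexokinase isozymes differed between the classes. Hk2, the hexokinase that is induced by HIF and growth signals, stood at 127, 189 and 408 CPM in microglia of WT, Tspan12 KO and Ctnnb1 cKO, and at 1.15, 1.31 and 5.31 CPM in ECs. Hk1, the constitutive hexokinase, was highest in rods (63.0, 86.1 and 61.2 CPM) and lowest of the 6 well-sampled classes in microglia (7.93, 12.5 and 10.7 CPM). Microglia were thus the highest class for Hk2 and the lowest for Hk1, while amacrine cells were second to the top for both in WT (57.2 CPM for Hk1 and 23.4 for Hk2). The rod clusters 8 and 2 had Hk1 at 78.5 and 34.0 CPM in WT and at 93.9 and 61.9 CPM in Tspan12 KO. WT rods of cluster 2 were thus below amacrine cells and Müller glia (44.4 CPM) of WT. Of the Hk1 and Hk2 UMIs of microglia, Hk2 took 94.1% in WT (exact Clopper-Pearson 95% interval 91.3 to 96.3), 93.8% in Tspan12 KO (91.5 to 95.6) and 97.4% in Ctnnb1 cKO (96.8 to 98.0). In ECs it took 2.5% (1.51 to 3.87), 1.79% (0.820 to 3.36) and 8.14% (6.36 to 10.2). Bipolar cells, amacrine cells and Müller glia of WT lay between, from 25.0% to 29.1%, and their intervals overlapped.

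**Figure D1:**
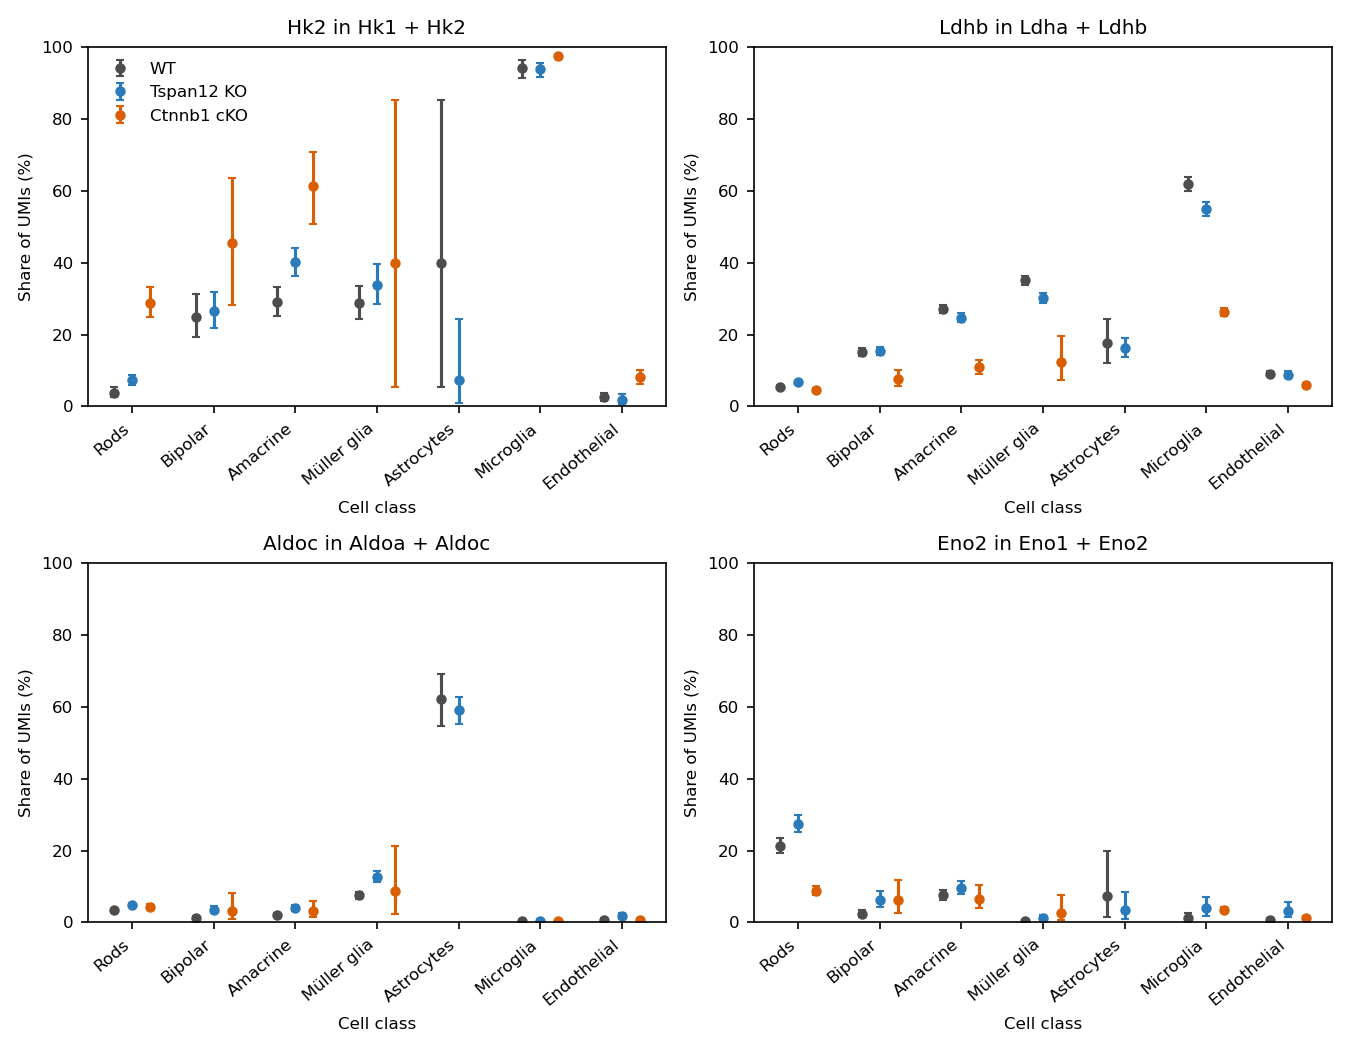
Share of UMIs (%) taken by Hk2, Ldhb, Aldoc and Eno2 within their isozyme pairs, by cell class (x axis) and library (colour); points are shares and bars exact 95% Clopper-Pearson intervals for counting error. Hk2 is above 93% in microglia and below 9% in ECs in all 3 libraries, Ldhb in microglia is 61.9% in WT and 26.2% in Ctnnb1 cKO, and Aldoc is the larger share only in astrocytes.

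In the upper pathway, Pfkfb3, which makes the fructose bisphosphate that activates phosphofructokinase, was also a microglial gene, at 109, 102 and 155 CPM against 1.73 to 22.3 CPM in the other classes apart from astrocytes. The phosphofructokinase subunits differed by class. Pfkl, the liver-type subunit, made up 84.2% (78.5 to 89.0), 78.5% (73.0 to 83.4) and 86.1% (83.0 to 88.8) of the Pfkl, Pfkp and Pfkm UMIs in microglia, while Pfkp, the platelet-type subunit, led in Müller glia with 60.5% (58.1 to 62.9), 63.5% (60.7 to 66.3) and 58.3% (40.8 to 74.5). Pfkp held 55.7%, 52.8% and 42.8% (39.9 to 45.6) in ECs of the 3 libraries. Aldoc, the brain aldolase and a known astrocyte gene, was at 671 and 514 CPM in WT and Tspan12 KO astrocytes and took 62.0% (54.7 to 69.0) and 59.0% (55.2 to 62.8) of the aldolase UMIs there. In every other class of these 2 libraries it took at most 12.6%. Gpi1, glucose phosphate isomerase, was the glycolytic enzyme gene that was highest in ECs, at 241, 193 and 191 CPM.

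In the lower pathway Müller glia stood out for Eno1, the ubiquitous enolase. It reached 787, 372 and 633 CPM there, at least 2-fold above the median of the other classes in all 3 libraries, and Pgk1, Pgam1 and Pfkp were also highest in Müller glia in every library. Eno2, the neuronal enolase, was highest in rods at 27.0, 28.8 and 31.6 CPM when astrocytes are set aside, and in WT took 21.2% (19.2 to 23.4) of the enolase UMIs of rods and 0.451% (0.286 to 0.676) of those of Müller glia. Summed over the 15 enzyme genes of the 10 steps, ECs held 3357 CPM in WT, against 3002 in rods, 4345 in microglia, 4368 in amacrine cells, 4969 in bipolar cells and 5627 in Müller glia. Rods and ECs were thus the low end of the sum in WT. In Ctnnb1 cKO the sum was 4004 CPM in rods, above the 3958 of bipolar cells and the 3702 of Müller glia, and ECs were lowest.

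Genes of lactate handling differed between rods and microglia. Ldha, the subunit that favours lactate formation, was highest in rods at 1505, 1392 and 2002 CPM, and ECs had 378, 383 and 391 CPM. Ldhb, the subunit that favours pyruvate, was highest in microglia at 587, 517 and 198 CPM. It took 61.9% (60.0 to 63.8) of the lactate dehydrogenase UMIs of WT microglia and 5.53% (5.21 to 5.86) of those of WT rods. Slc16a3, the lactate exporter MCT4, was at 59.8, 78.9 and 55.8 CPM in microglia and at 3.38, 5.23 and 1.59 CPM in ECs. Pdk1, a HIF-induced pyruvate dehydrogenase kinase, was highest in microglia as well, at 38.2, 52.1 and 42.4 CPM.

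The genes of the 2 HIF subunits had different highest classes. Epas1 was at 293, 327 and 456 CPM in ECs and at 405 and 490 CPM in WT and Tspan12 KO astrocytes, where the intervals were 316 to 511 and 442 to 542. In WT it was at 3.46 to 6.85 CPM in rods, bipolar cells, amacrine cells and microglia, and at 25.9 CPM in Müller glia. Hif1a was highest in amacrine cells, at 547, 488 and 415 CPM, and at 103, 141 and 103 CPM in ECs and 137, 158 and 100 CPM in microglia. In both ECs and microglia it was at least 2-fold below the median of the other classes in every library. Egln3, the prolyl hydroxylase that HIF itself induces, was low throughout and highest in microglia (8.65, 14.3 and 19.7 CPM).

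Among the HIF targets, Ndrg1 was highest in rods. It was at 833, 1046 and 777 CPM in rods and 463, 529 and 547 CPM in bipolar cells. Amacrine cells had 259, 307 and 370 CPM and Müller glia 134, 214 and 215 CPM. The lowest levels were 39.3, 81.0 and 23.3 CPM in microglia and 32.0, 59.3 and 49.3 CPM in ECs. Bnip3, a mitophagy receptor, was highest in bipolar cells (119, 137 and 217 CPM) and lowest in ECs (6.16, 9.89 and 14.6 CPM). P4ha1, a collagen prolyl hydroxylase, was highest in microglia (115, 130 and 116 CPM). The 9 genes lower in ECs in all 3 libraries were Hk2, Pfkfb4, Ldhb, Slc16a3, Hif1a, Bnip3, Ndrg1, Mif and P4ha1, and the 1 higher was Epas1. Car9, a carbonic anhydrase that is a sensitive HIF target, passed the count minimum in no class, and its highest level in a class of at least 40 cells was 4.95 CPM, in Ctnnb1 cKO microglia.

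**Figure D2:**
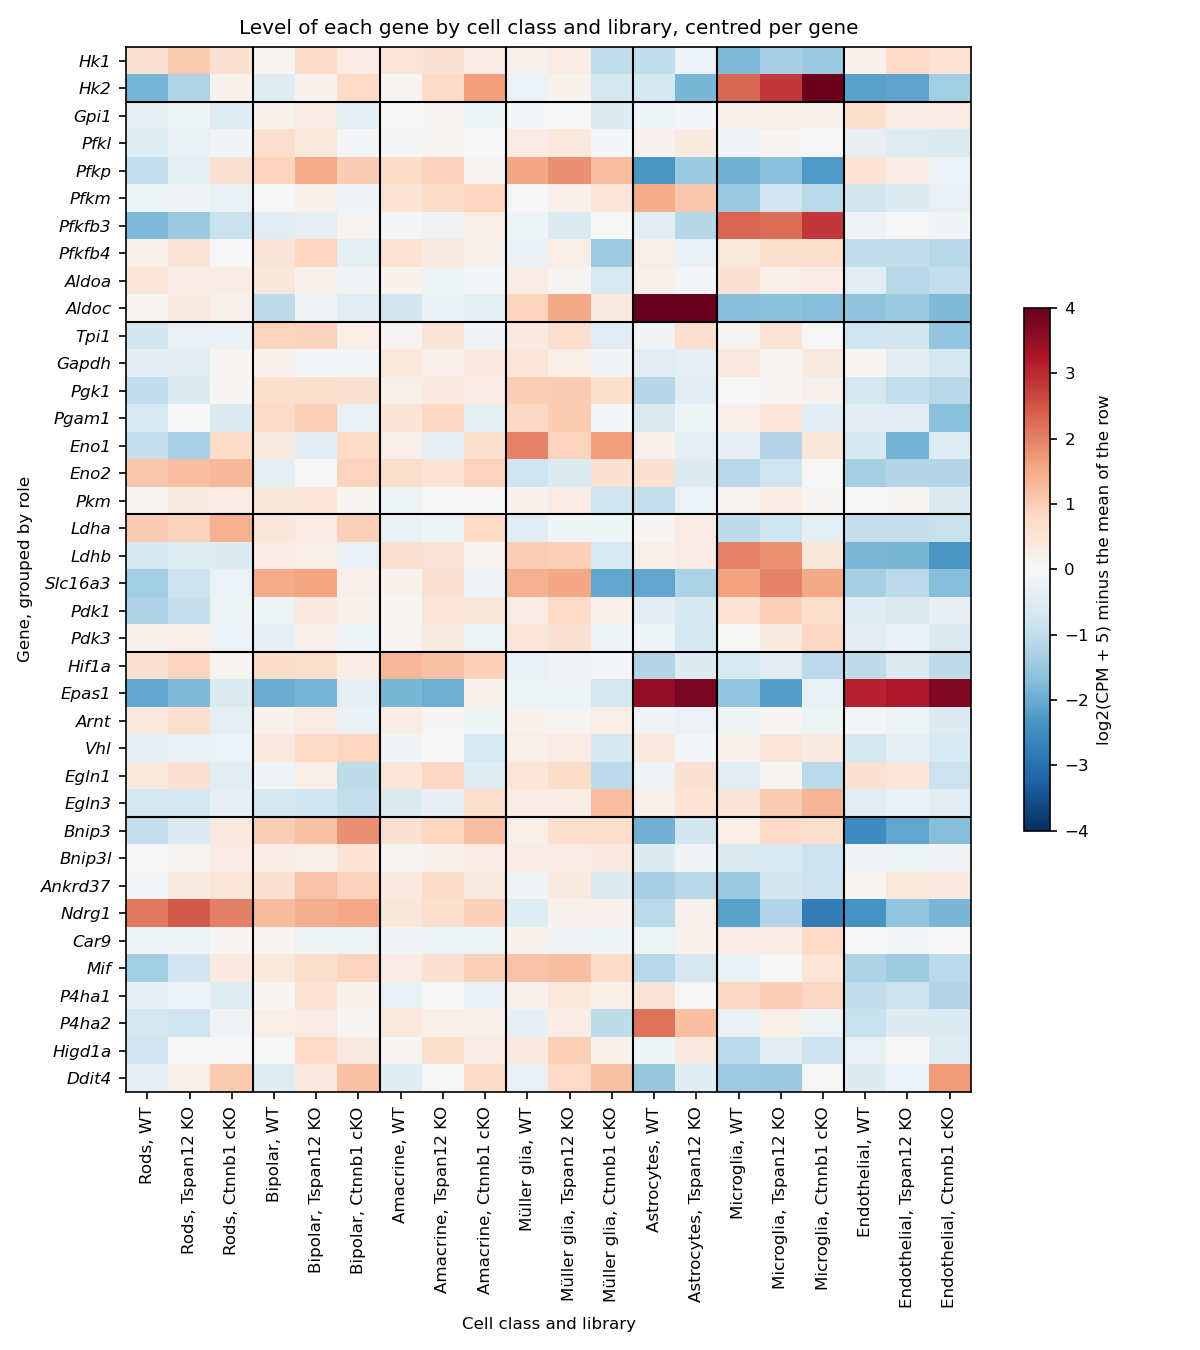
Level of each of the 38 genes (rows, grouped by role) in each cell class and library (columns), as log2 of CPM plus 5 minus the mean of the row; Ctnnb1 cKO astrocytes are left out, and the other astrocyte columns rest on 21 and 53 cells. Hk2 and Pfkfb3 stand out in microglia, Epas1 in ECs and astrocytes, Aldoc in astrocytes, Ndrg1 and Ldha in rods and Eno1 in Müller glia.

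The second question was how these genes differed between each knockout library and WT within a class. In Tspan12 KO few genes were at least 2-fold apart. Counting genes with at least 50 UMIs, on CPM plus 5, 0 of 36 passed in rods (0.0944% of all genes higher, 0.102% lower), 0 of 35 in bipolar cells (0.604% and 0.179%), 0 of 36 in amacrine cells (1.22% and 0.197%) and 0 of 36 in microglia (0.458% and 0.925%). In ECs 0 were higher and 1 was lower of 35 (0.527% and 0.971%), in Müller glia 1 higher and 1 lower of 36 (0.708% and 0.242%), and in astrocytes 1 higher and 0 lower of 20 (8.02% and 4.02%). The genes were Eno1 in ECs and Müller glia, Ddit4 in Müller glia and Ndrg1 in astrocytes. Ndrg1 was at 86.7 CPM in the 21 WT astrocytes and 220 CPM in the 53 of Tspan12 KO (plain log2 ratio 1.34, 0.58 to 2.21), but with classes from a marker gate its log2 ratio was -0.89, and that of Ddit4 in Müller glia was 0.88. With a pseudocount of 1 the counts were 1 in rods, 2 in bipolar cells and 3 in microglia. In all 6 well-sampled classes together, 0 genes were at least 2-fold higher (0.0223% of all genes) and 0 lower (0.0447%).

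The Tspan12 KO differences were small, and in each class more were above 0 than below, with 21 of 35 above in ECs and 32 of 36 in rods. The median log2 ratio of the counted genes was 0.27 in rods, 0.19 in bipolar cells, 0.17 in amacrine cells, 0.16 in Müller glia and 0.27 in microglia, against -0.03, -0.01, -0.01, -0.00 and 0.07 over all genes, and 0.04 against 0.01 in ECs. Of 32 genes counted in all 6 well-sampled classes, 13 were above 0 in every one of them (15% of 8958 genes). They were Hk1, Hk2, Pfkm, Tpi1, Pkm, Slc16a3, Pdk3, Vhl, Bnip3, Ankrd37, Ndrg1, P4ha1 and Higd1a. Higd1a, a HIF-induced mitochondrial protein, had log2 ratios from 0.27 to 0.80 over the classes. It was at 87.3 CPM in WT and 151 CPM in Tspan12 KO in rods, 151 and 267 in bipolar cells, 155 and 246 in amacrine cells, 198 and 300 in Müller glia, 69.6 and 108 in microglia, and 123 and 149 in ECs. Its level was thus higher in the Tspan12 KO library in each class. The classes share 1 library per genotype, so they do not replicate each other.

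Eno1 was lower in Tspan12 KO. Its level was lower than in WT in all 7 classes, by 0.37 to 1.27 on the log2 scale of CPM plus 5, and 2 of 32 genes, Eno1 and Aldoa, were below 0 in all 6 well-sampled classes (12.1% of all genes). In ECs Eno1 was at 125 CPM in WT and 48.8 in Tspan12 KO (plain log2 ratio -1.35, 95% interval -1.52 to -1.18), and in Müller glia at 787 and 372 CPM (-1.08, -1.17 to -1.0). In WT and Tspan12 KO ECs of the shared cluster 13 it was at 125 and 53.1 CPM. Eno1 has a near-identical copy, Eno1b, whose reads the counting could split from it, at 5.44 and 3.34 CPM in the ECs of WT and Tspan12 KO. With each cell thinned to 2000 UMIs the EC difference of Eno1 was -0.83 and no longer past 2-fold.

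**Figure D3:**
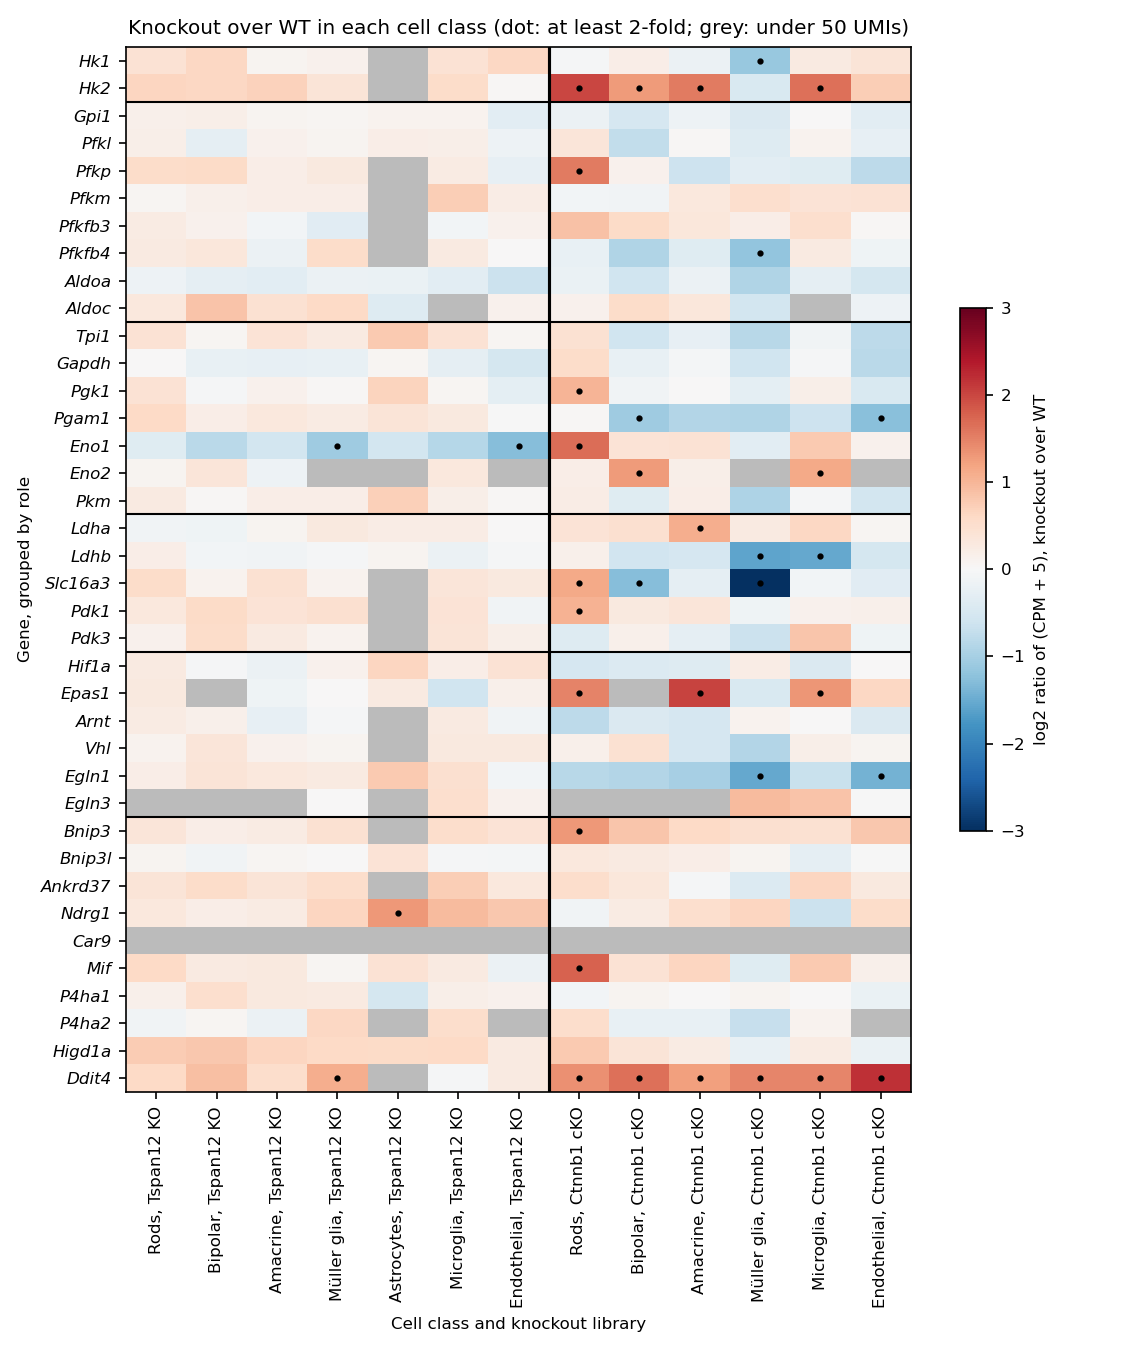
Log2 ratio of CPM plus 5, knockout library over WT, for each of the 38 genes (rows, grouped by role) in each class (columns); dots mark at least 2-fold and grey marks genes under 50 UMIs in the class. Dots are few in the Tspan12 KO columns, Ddit4 has a dot in all 6 Ctnnb1 cKO columns, and rods hold 10 of the Ctnnb1 cKO dots.

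In Ctnnb1 cKO more of these genes, and more of all genes, were at least 2-fold from WT. In rods 10 of 36 were higher and 0 lower (5.91% and 6.74% of all genes), in bipolar cells 3 higher and 2 lower of 35 (3.79% and 8.91%), and in amacrine cells 4 higher and 0 lower of 36 (3.91% and 8.08%). In microglia 4 were higher and 1 lower of 36 (4.33% and 4.91%), in ECs 1 higher and 2 lower of 35 (3.92% and 5%), and in Müller glia 1 higher and 5 lower of 36 (6.24% and 14.6%). The median log2 ratio of the genes was 0.34 in rods against -0.08 over all genes, 0.12 against -0.12 in bipolar cells, 0.02 against -0.12 in amacrine cells, 0.15 against 0.02 in microglia, -0.13 against -0.09 in ECs, and -0.40 against -0.06 in Müller glia.

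Ddit4 was the gene that was at least 2-fold higher in all 6 classes (33 of 8958 genes, 0.368%, were, and 0 of the 38 were at least 2-fold lower in all 6, against 0.279%). It encodes REDD1, an inhibitor of mTORC1 that is induced by hypoxia, glucocorticoids and other stress. In ECs of WT, Tspan12 KO and Ctnnb1 cKO it was at 16.7, 21.2 and 94.3 CPM (plain log2 ratio 2.50, 95% interval 2.31 to 2.69). In rods it was at 19.6, 32.0 and 58.4 CPM (1.58, 1.33 to 1.82), in microglia at 6.13, 5.91 and 26.0 CPM (2.08, 1.37 to 2.89), and in bipolar cells at 16.8, 35.7 and 63.9 CPM (1.93, 1.17 to 2.64). In amacrine cells it was at 16.8, 26.3 and 45.9 CPM (1.45, 0.86 to 2.02) and in Müller glia at 19.9, 48.0 and 63.8 CPM (1.69, 0.65 to 2.57). Müller glia were the class in which Ddit4 was at least 2-fold higher in both knockouts, which share the WT cells.

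Within ECs of Ctnnb1 cKO, Ddit4 was at 53.9 CPM in cluster 3 and 247 CPM in cluster 14, both above the 16.7 CPM of WT cluster 13. The EC and rod differences kept their side of 2-fold under each alternative that kept at least 50 cells. In the 21 Ctnnb1 cKO rods outside cluster 6 the log2 ratio was -0.72, but those cells held too few Ddit4 UMIs to give a direction. The differences in the other classes did not all hold. Without doublet removal the log2 ratio was 0.39 in amacrine cells, and with classes from a marker gate it was 0.50 in bipolar cells. With cells thinned to 2000 UMIs it was 0.61 in Müller glia, and in the 82 Ctnnb1 cKO microglia outside clusters 5 and 26 it was -0.08. Genes of the early response to tissue dissociation differed in that library too. Of a list of 12 such genes, 3 of 12 counted were at least 2-fold higher in rods (5.91% of all genes), 5 of 10 in bipolar cells (3.79%) and 3 of 10 in amacrine cells (3.91%), where 1 was also lower, with medians of 0.44, 0.74 and 0.22. In Müller glia, ECs and microglia 0 were higher and 1, 0 and 1 were lower, with medians of -0.36, -0.13 and -0.69. Their part in the Ddit4 difference was not tested.

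A few other genes were on 1 side of WT in all 6 classes of Ctnnb1 cKO without being 2-fold apart in each. Pfkfb3, Ldha, Bnip3 and Ddit4 were above (4 of 32, against 10.7% of all genes), and Aldoa and Egln1 were below (2 of 32, against 16.6%). The first share was near the background and the other under it, so these genes are given as a description. Bnip3 was at 28.3 CPM in WT and 77.3 in Ctnnb1 cKO in rods, 119 and 217 in bipolar cells, 92.2 and 142 in amacrine cells, 69.9 and 98.5 in microglia, and 6.16 and 14.6 in ECs. Egln1, the main oxygen-sensing prolyl hydroxylase, was at 118, 111 and 40.6 CPM in ECs of WT, Tspan12 KO and Ctnnb1 cKO (plain log2 ratio of Ctnnb1 cKO to WT -1.53, -1.68 to -1.39). In rods it was at 106, 121 and 57.0 CPM and in microglia at 57.3, 81.3 and 34.3 CPM. Both EC clusters of Ctnnb1 cKO were low for Egln1, at 41.6 CPM in cluster 3 and 36.4 in cluster 14.

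**Figure D4:**
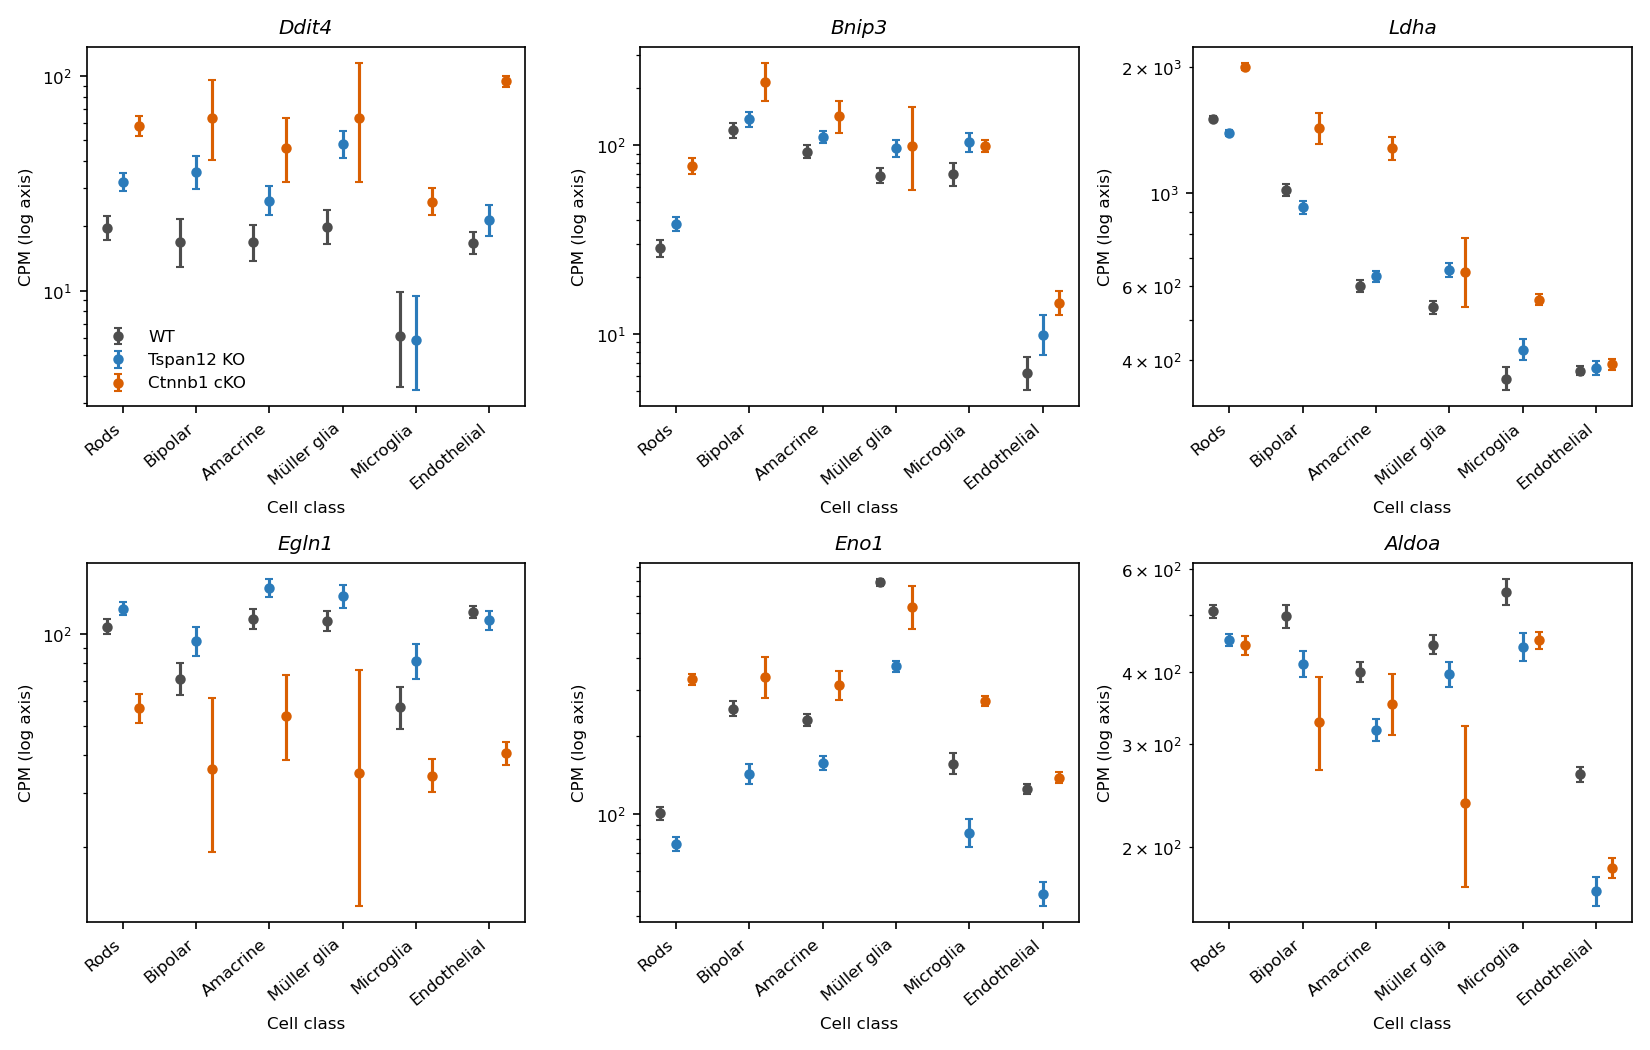
CPM (log axis) of Ddit4, Bnip3, Ldha, Egln1, Eno1 and Aldoa in 6 cell classes (x axis) and 3 libraries (colour), with exact 95% Poisson intervals for counting error. Ddit4 is highest in Ctnnb1 cKO in every class and reaches 94.3 CPM in ECs, Egln1 is lowest in Ctnnb1 cKO in every class, and Eno1 is lowest in Tspan12 KO in every class.

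The promoters of the 38 genes were searched for the core of the hypoxia response element, ACGTG or GCGTG on either strand, in the 250 bases before the start site in RefSeq (GRCm38.p6). Overlapping matches, as in a CACGTG palindrome, were each counted. A promoter was at hand for 35 of the 38 genes, and 27 of them (77.1%) held at least 1 match, against 38.6% of 27025 genes. With ACGTG alone the shares were 48.6% and 16.6%. A match describes the letters only. The genes were chosen partly as classical HIF targets, so their higher share is no independent result. The 27025 genes were not matched to them in base content. The stretches below are 100 bases of that window, placed to hold the most matches, 5′ to 3′ on the strand of the gene with the matches in capitals, for the genes on 1 side of WT in all 6 classes of Ctnnb1 cKO. They are Ddit4 at chr10:59951872-59951971 (minus strand), Bnip3 at chr7:138909532-138909631 (minus strand), Ldha at chr7:46845680-46845779 (plus strand), Pfkfb3 at chr2:11553940-11554039 (minus strand) and Egln1 at chr8:124949302-124949401 (minus strand).
Ddit4: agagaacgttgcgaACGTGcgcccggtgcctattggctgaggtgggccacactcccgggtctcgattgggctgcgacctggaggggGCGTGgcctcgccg
Bnip3: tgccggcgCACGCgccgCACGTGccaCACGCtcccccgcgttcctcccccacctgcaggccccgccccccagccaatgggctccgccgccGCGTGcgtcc
Ldha: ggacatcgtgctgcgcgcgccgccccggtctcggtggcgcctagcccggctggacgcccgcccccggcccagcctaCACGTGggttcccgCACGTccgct
Pfkfb3: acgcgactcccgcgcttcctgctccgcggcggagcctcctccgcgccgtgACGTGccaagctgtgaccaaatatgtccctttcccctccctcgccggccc
Egln1: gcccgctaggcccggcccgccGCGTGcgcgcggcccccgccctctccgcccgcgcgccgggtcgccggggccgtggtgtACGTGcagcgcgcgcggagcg
The Bnip3 stretch held 5 matches, Ldha 3, Ddit4 and Egln1 2 each and Pfkfb3 1, and the Aldoa window held 0. Matches were thus found in Egln1, which was lower in Ctnnb1 cKO, and in the 4 genes that were higher.

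In Ctnnb1 cKO rods had more genes past 2-fold than any other class, 10 of 36. Mif, a cytokine that HIF induces, was at 253, 387 and 868 CPM in WT, Tspan12 KO and Ctnnb1 cKO (plain log2 ratio of the latter to WT 1.78, 1.72 to 1.85), Eno1 at 100, 76.1 and 331 CPM (1.73, 1.62 to 1.83) and Pfkp at 23.1, 36.1 and 77.3 CPM (1.74, 1.52 to 1.96). The others were Hk2, Epas1, Ddit4, Bnip3, Slc16a3, Pdk1 and Pgk1. The HIF targets as a group had 3 of 9 higher (5.91% of all genes) and a median of 0.54, and the 5 counted genes of the HIF system had 1 higher and a median of -0.51. Markers of some other classes were also higher in these rods. Summed progenitor markers were 233, 366 and 1001 CPM and summed markers of the Müller glia list 702, 734 and 1896 CPM. That list does not single out Müller glia, as it summed to 18860 CPM in WT microglia and 7643 CPM in WT Müller glia. Mif and Eno1 were both highest in WT in Müller glia (1437 and 787 CPM). The part of RNA from other classes in the rod differences was not tested. With classes from a marker gate, 6 of the rod genes were past 2-fold rather than 10. In the 21 Ctnnb1 cKO rods outside cluster 6, only Pfkp and Epas1 stayed past 2-fold. There the log2 ratio was 0.14 for Mif and 0.64 for Eno1. It was -0.72 for both Slc16a3 and Ddit4, which had too few UMIs in those cells to give a direction.

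Hk2 and Epas1, which were higher in several classes of Ctnnb1 cKO, are genes of microglia and of ECs. Hk2 was at 2.47, 6.77 and 24.9 CPM in rods, 14.3, 24.7 and 41.7 in bipolar cells and 23.4, 40.6 and 78.7 in amacrine cells. As a percentage of the level in microglia of the same library, Hk2 in Ctnnb1 cKO was at 6.08% in rods, 10.2% in bipolar cells, 19.3% in amacrine cells and 1.30% in ECs, and the summed microglial markers were at 3.64%, 4.62%, 3.92% and 3.39%. Hk2 in amacrine cells of WT and Tspan12 KO was at 18.4% and 21.5%, where the markers were at 0.516% and 0.361%. Epas1 in Ctnnb1 cKO was at 4.08% of its EC level in rods, 7.77% in amacrine cells and 5.43% in microglia, close to the summed EC markers, which were at 5.68%, 6.41% and 6.58%. Epas1 in rods and microglia of this library was thus below the level of the other EC markers, and in amacrine cells it was above it. The part of RNA from ECs in the Epas1 differences was not tested. Hk2 in amacrine cells, bipolar cells and rods was above the level of the microglial markers in each library. The part of RNA from microglia in the Hk2 differences was not tested.

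Amacrine cells had Ctnnb1 cKO cells in the same clusters as WT. In cluster 9 Ldha was at 747, 744 and 1507 CPM in WT, Tspan12 KO and Ctnnb1 cKO, and in cluster 12 at 368, 473 and 700 CPM. Hk2 was at 29.6, 51.1 and 77.8 CPM in cluster 9 and at 15.9, 31.1 and 83.8 CPM in cluster 12. Both genes were thus higher in Ctnnb1 cKO in each cluster. Over all amacrine cells the plain log2 ratio of Ctnnb1 cKO to WT was 1.75 for Hk2 (1.29 to 2.19) and 1.09 for Ldha (0.99 to 1.19). Ldha was highest in rods, and summed rod markers in amacrine cells were 2268, 2073 and 3258 CPM. The part of rod RNA in the Ldha difference was not tested. Without doublet removal the Ldha ratio was 0.59.

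Microglia of Ctnnb1 cKO were 2156 cells, and differed from WT in both isozyme pairs that mark the class. Most lay in cluster 5 (1860 cells), whose 10 leading genes included Cx3cr1, Ccl12, Il1b and Ccl4. Most WT microglia lay in cluster 18 (179 cells), whose leading genes included P2ry12, Fcrls and Trem2. The part of these cell states in the differences was not tested. Hk2 was at 127, 189 and 408 CPM in the 3 libraries (plain log2 ratio of Ctnnb1 cKO to WT 1.68, 1.52 to 1.85). Ldhb was at 587, 517 and 198 CPM (-1.57, -1.67 to -1.47), while Ldha was at 362, 424 and 558 CPM. The Ldhb share of the lactate dehydrogenase UMIs was thus 61.9% (60.0 to 63.8), 54.9% (53.1 to 56.8) and 26.2% (25.0 to 27.4). These differences stayed past 2-fold for Hk2 and Ldhb under each of 11 alternatives, but not all of these could lose them. A smaller pseudocount and no count minimum cannot lose a counted difference, and adding the unnamed cluster to Müller glia leaves microglia unchanged. In cluster 24, which the libraries share (111, 99 and 73 cells), Hk2 was at 75.2, 115 and 290 CPM and Ldhb at 799, 525 and 136 CPM. Ldhb was lower in Ctnnb1 cKO in Müller glia too (289, 284 and 92.9 CPM), and its share was lower there and in bipolar cells, amacrine cells and ECs. In ECs the share was 9.07% (8.41 to 9.78) for WT and 5.93% (5.31 to 6.61) for Ctnnb1 cKO.

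Müller glia of Ctnnb1 cKO were 40 cells, in which 3 UMIs made 17.4 CPM. Slc16a3 was at 52.4 CPM in WT and 56.5 in Tspan12 KO and had 0 UMIs in Ctnnb1 cKO, at least 3.01-fold lower than WT by that floor. Pfkfb4 and P4ha2, which also had 0 UMIs, were under the floor in WT as well and give no fold. The 3 Hk1 UMIs left an interval of the plain log2 ratio from -3.64 to 0.21. With Slc16a3 at its bound and the other 2 left out, the median of the remaining 34 genes was -0.37. When the unnamed cluster 19, with 456 Ctnnb1 cKO cells that best matched Müller glia, was added, the log2 ratio was -0.23 for Hk1, -0.44 for Pfkfb4 and -0.96 for Ldhb, and only Slc16a3, Egln1 and Ddit4 stayed past 2-fold.

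In ECs, the cells the Cre driver targets, the 6 counted genes of the lower pathway had median log2 ratios to WT of -0.15 for Tspan12 KO and -0.66 for Ctnnb1 cKO. The enzymes of the 10 steps summed to 3357, 2714 and 2180 CPM in WT, Tspan12 KO and Ctnnb1 cKO. Gapdh was at 1359, 938 and 772 CPM, a log2 ratio of CPM plus 5 of -0.53 and -0.81. Aldoa was at 266, 168 and 184 CPM. Pgam1 was at 239, 236 and 97.5 CPM, and its plain log2 ratio in Ctnnb1 cKO was -1.30 (-1.39 to -1.20). Tpi1 was at 154, 160 and 87.7 CPM and Pkm at 634, 649 and 434 CPM, so that both, like Pgam1, were near WT in Tspan12 KO and lower in Ctnnb1 cKO. Ldha, at the lactate branch, was at 378, 383 and 391 CPM, and Hk1, at the head of the pathway, was at 44.8, 72.0 and 59.9 CPM, so neither was below WT. Of the 35 counted genes 1 was past 2-fold lower in Tspan12 KO (Eno1) and 2 in Ctnnb1 cKO (Egln1 and Pgam1).

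**Figure D5:**
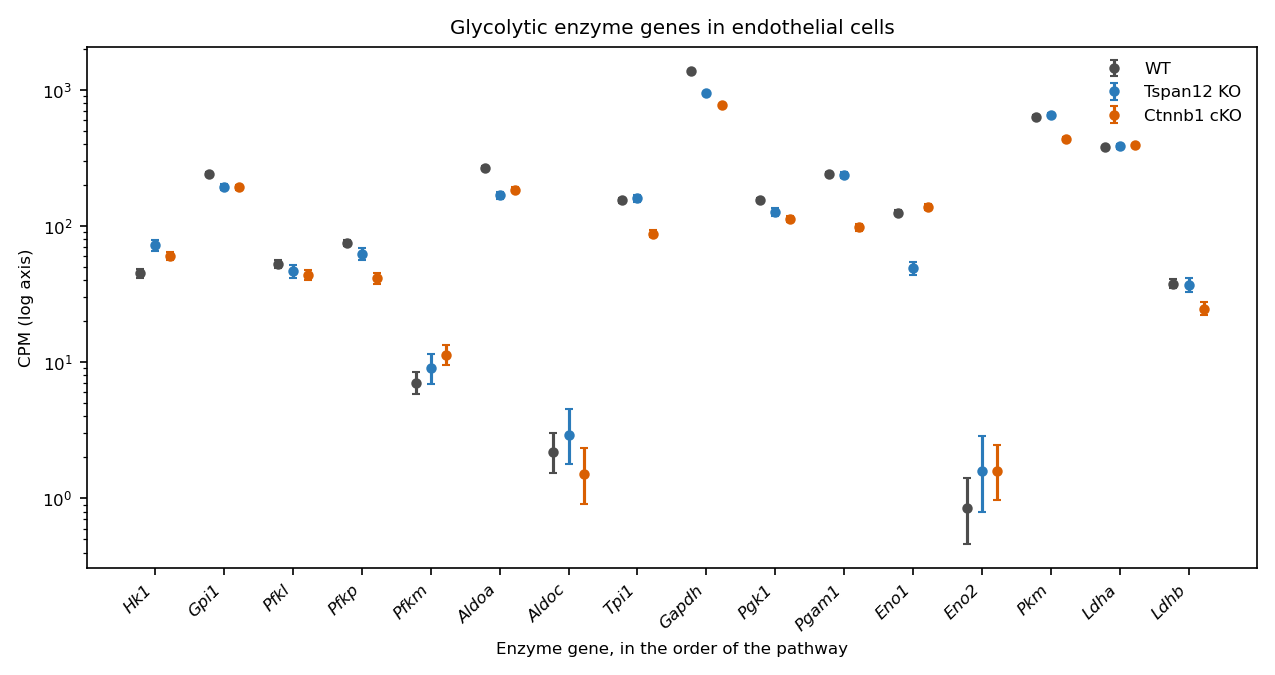
CPM (log axis) of glycolytic enzyme genes in ECs, in the order of the pathway (x axis), by library (colour), with exact 95% Poisson intervals for counting error. Gapdh is at 1359, 938 and 772 CPM in WT, Tspan12 KO and Ctnnb1 cKO, Pgam1 is low in Ctnnb1 cKO and Eno1 in Tspan12 KO, and Ldha is between 378 and 391 CPM in all 3.

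ECs of the libraries differed in other ways too, as did other classes in depth and mitochondrial share. Median UMIs per EC were 16390, 18312.5 and 3309.5, the median mitochondrial share was 3.84%, 2.32% and 0.370%, and summed erythroid markers were 1177, 4256 and 459 CPM. The part of these in the EC values was not tested. Within Tspan12 KO, the 209 ECs of cluster 13 had Gapdh at 1068 CPM and the 69 of cluster 3 at 558 CPM. In Ctnnb1 cKO, cluster 3 had 767 and cluster 14 had 790 CPM. Gapdh in ECs was thus below WT in each of these clusters.

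Other genes of the pathway and of the hypoxia response, taken from fixed lists, were counted the same way. In ECs 18 of 28 other glycolysis genes and 30 of 34 other hypoxia genes had enough UMIs. In Tspan12 KO 0 of the former were higher and 2 lower, and 0 of the latter higher and 3 lower, with medians of 0.06 and 0.02 (0.527% of all genes higher and 0.971% lower). In Ctnnb1 cKO 0 and 2 were higher and 3 and 1 lower, with medians of -0.26 and -0.00 (3.92% and 5%). Slc16a1, the lactate transporter MCT1 of brain vessels, was at 25.8, 4.94 and 3.09 CPM in WT, Tspan12 KO and Ctnnb1 cKO (plain log2 ratios -2.38, -2.93 to -1.88, and -3.06, -3.57 to -2.59). Bsg, basigin, which carries MCT1 to the membrane, was at 1883, 877 and 437 CPM (-1.10, -1.14 to -1.06, and -2.11, -2.15 to -2.07). Both were past 2-fold lower in each knockout, which share the WT cells.

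Angptl4, a secreted HIF and PPAR target, was also past 2-fold lower in ECs of each knockout, at 57.7, 11.8 and 9.67 CPM. Edn1, an endothelin precursor, was past 2-fold higher in Ctnnb1 cKO, at 30.2, 26.3 and 169 CPM. It was among the 10 leading genes of EC cluster 14, which held 0 WT, 2 Tspan12 KO and 575 Ctnnb1 cKO cells. In microglia 1 of 11 counted genes of the dissociation list, Hspa1a (46.9, 12.5 and 13 CPM), was past 2-fold lower in both knockouts. So was Ddit3 (84.0, 39.3 and 31.9 CPM), 1 of 4 counted from a list of 8 integrated stress response genes. Of all genes in microglia, 0.925% were lower in Tspan12 KO and 4.91% in Ctnnb1 cKO. Vegfa, the classical HIF target, was an astrocyte gene at 567 and 459 CPM in WT and Tspan12 KO. It was at 40.1, 36.5 and 41.0 CPM in rods and 80.8, 117 and 81.2 CPM in Müller glia, with no 2-fold difference in either knockout.

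Outside ECs the counts of other hypoxia genes past 2-fold higher in Ctnnb1 cKO were near those of all genes. In rods 1 of 23 was higher (5.91% of all genes) and 1 lower (6.74%), in bipolar cells 0 of 20 (3.79%) and 1 (8.91%), and in amacrine cells 1 of 21 (3.91%) and 0 (8.08%). In Müller glia 1 of 21 was higher (6.24%) and 1 lower (14.6%), and in microglia 2 of 21 (4.33%) and 1 (4.91%). The medians were -0.00, 0.02, 0.11, -0.09 and -0.13. Of the other glycolysis genes, 0 of 18 were higher and 6 lower in the 40 Ctnnb1 cKO Müller glia, with a median of -0.63 against -0.06 over all genes. In rods 1 of 21 was higher and 0 lower, and in bipolar cells 0 of 16 and 2. In amacrine cells these counts were 0 of 19 and 2, and in microglia 1 of 16 and 0. The medians of these 4 classes were -0.16, -0.08, -0.29 and -0.08.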

How the data were processed

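The deposited files hold raw counts of UMIs per gene and cell barcode, made by the authors with Cell Ranger. The matrix headers name cellranger 8.0.1, and the labels name GRCm39 where the methods name mm10, so the build was not settled and no coordinates were taken from the files. Each library's shallowest barcode held 500 UMIs.

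Barcodes needed 250 genes, 500 UMIs and a mitochondrial share no higher than 15%, and a nearest-neighbour doublet score took out 0.8% per 1000 cells (760, 1656 and 665 cells in WT, Tspan12 KO and Ctnnb1 cKO). The rest were clustered with leidenalg 0.10.2 at resolution 1 on 2000 variable genes without the 38 genes, 30 principal components and 20 neighbours. Clusters were named from 21 fixed marker lists, by at least 3 markers at 2-fold or more and no other class leading their 10 top genes. UMIs were summed per class and library and divided by the total (CPM). Log2 ratios for counts of genes used a pseudocount of 5 CPM and genes with at least 50 UMIs over the 3 libraries in a class. Plain ratios have exact conditional binomial intervals, CPM exact Poisson and shares Clopper-Pearson intervals, all at 95% and for counting error only. A count of 0 was given a floor of 3 UMIs. edgeR 4.0.16 (R 4.3.3) was used only for TMM scaling. The scripts were tested on simulated data. Python 3.11.15, numpy 2.4.6, scipy 1.17.1 and scikit-learn 1.9.0 were used.

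The 38 genes and the other lists were chosen with earlier results of these data known. All 38 could be named. Values in every library were given for genes past 2-fold the same way in both knockouts, genes at least 4-fold higher in 1 class than the median of the other 6 in all 3 libraries, and isozyme families. Genes picked out within the 38, such as Ddit4, Eno1 and Higd1a, were chosen after their values were seen. Alternatives were no doublet removal, the 38 genes kept for clustering, classes from a marker gate per cell, the mean over cells, cells thinned to 2000 UMIs, TMM scaling, no count minimum and a pseudocount of 1. The study's integrated data sets and its subclustering were not used.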

Additional observations from a re-analysis of the deposited data

How the results depend on the processing

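With 1 library per genotype no replicate could be left out, and depth limits the Ctnnb1 cKO Müller glia (40 cells) and bipolar cells (132 cells) most. No paired analysis was possible because each genotype has 1 library and the labels give no replicate numbers. Of 37 differences past 2-fold, TMM scaling and scaling to the median of all genes kept 36, and keeping the 38 genes for clustering 35. The mean over cells kept 31, no doublet removal 30, thinning 30 and the marker gate 24. A pseudocount of 1 and no count minimum kept 37, but neither could lose a counted difference. A smaller pseudocount only enlarges a ratio, and dropping the minimum leaves it unchanged. In these settings each difference kept its direction except 4 under the marker gate. Another 3 settings were chosen after seeing the data: scaling to the median, adding cluster 19 to Müller glia, and leaving out clusters mostly of Ctnnb1 cKO. Adding cluster 19 kept 34, but it could change only the Müller glia differences. Leaving out those clusters kept 25, turned the direction of 3, and left only 21 rods, 28 bipolar cells and 14 ECs of Ctnnb1 cKO. Slc16a3 and Ddit4 in rods, which were among the 3, had too few UMIs in those 21 cells to give a direction.

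Counts past 2-fold in Tspan12 KO moved with the marker gate to 1 in rods, 2 in bipolar cells, 1 in Müller glia and 2 in ECs. A pseudocount of 1 gave 1 in rods, 2 in bipolar cells and 3 in microglia, and the mean over cells 1 in bipolar cells and 2 in microglia. Thinning gave 1 in amacrine cells, 1 in microglia and 0 in ECs, no doublet removal 1 in microglia, and no count minimum 5 in astrocytes. In Ctnnb1 cKO the marker gate gave 6 in rods and 7 in amacrine cells (2 higher, 5 lower), thinning 3 in bipolar cells, no doublet removal 2 in amacrine cells and a pseudocount of 1 gave 5 in ECs. The genes with 1 highest class in all libraries were 13 with the marker gate, 10 with thinning and 10 without the clusters mostly of Ctnnb1 cKO. The cause of these moves was not tested. Of the isozyme shares and list counts, 597 values moved less than their counting interval or by under 1.5-fold, and 174 moved more.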
